A study of Homo sapiens with 9 samples.

Results

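The synaptic vesicle exocytosis machinery was followed gene by gene in 3 human breast cancer lines. Its 78 members, of 58884 genes in the count table, were taken by symbol: the RIM family (RIMS), Munc13 proteins (UNC13), bassoon (BSN), piccolo (PCLO) and ELKS proteins (ERC); the synaptotagmins (SYT); syntaxins (STX), VAMPs and SNAP25 relatives; the syntaxin-binding proteins (STXBP) and complexins (CPLX); and the vesicle proteins SV2, synapsin (SYN), synaptogyrin (SYNGR), synaptophysin (SYP) and SNAP91. RNA was sequenced from 3 libraries each of Par, the unselected MDA-MB-231 line, and of its sub-populations LM2 and BrM2, which were selected in mice for metastasis to lung and to brain. All 3 lines grew as untreated monolayers in serum-containing medium for 3 days and were harvested at different passages. Each sub-population is represented by a single derived line, so the tests below measure the spread between passages of these lines and not between independently derived metastatic lines. The members were measured in cultured cells without any other tissue present, and a larger share of cells with a transcript cannot be told apart from more transcript per cell in bulk RNA.

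Regulated exocytosis brings a vesicle to the plasma membrane, holds it there and fuses it when calcium enters. Active zone scaffolds such as RIM, ELKS, bassoon and piccolo organise the release site, Munc13 proteins open syntaxin for SNARE assembly, and the SNARE proteins on both membranes zipper together under the control of Munc18 proteins and complexins. Synaptotagmins couple fusion to calcium. In neurons a small set of these genes serves the synapse (RIMS1, SNAP25, STX1A, VAMP2, SYT1), whereas their relatives (SNAP23, STX4, VAMP8, UNC13D) serve secretion and membrane traffic in most other cells, which makes it of interest to read them one by one in a carcinoma line.

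The libraries held 14371858 to 24511786 counts each. A filter on low counts left 13018 genes for testing and with them 49 of the 78 members; of the other 29, 8 had no count in any library, 8 more had at most 3 counts in every library, and 13 exceeded 3 counts in at least one. Since a member can pass the filter through the line in which it is high, counts over the 49 do not describe the family as a whole. Epithelial keratins marked all 3 lines: KRT8 averaged 853, 516 and 508 CPM (counts scaled to library size) in Par, LM2 and BrM2. VIM, a mesenchymal filament gene typical of MDA-MB-231, averaged 725, 1540 and 1500 CPM. Other markers moved differently. KRT7 averaged 488, 174 and 60.9 CPM and was called lower in both sub-populations than in Par. KRT19 averaged 206, 45.5 and 191 CPM and was called lower in LM2 than in Par and higher in BrM2 than in LM2. FN1, a mesenchymal matrix gene, averaged 886, 1130 and 290 CPM and was called lower in BrM2 than in Par and LM2. The adhesion gene CDH1 stayed at or below 1.94 CPM in every library. Of 10 neuronal markers, 8 had at most 3 counts in every library (RBFOX3, NEFL, NEFM, ELAVL3, ELAVL4, STMN2, DCX and GAP43), and the summed level of the 10 ranged from 4.41 to 7.59 CPM in Par, 2.78 to 5.10 in LM2 and 2.65 to 4.72 in BrM2. The neuroendocrine transcription factors INSM1 and NEUROD1 likewise had at most 3 counts, and the summed level of the 6 neuroendocrine markers was lowest in BrM2, at 2.43 to 5.30 CPM against 13.5 to 15.2 in Par and 9.83 to 17.2 in LM2. SCG2, a granin of dense-core vesicles, made up most of that sum and fell by 1.89 ± 0.33 (log2, SE) in BrM2 against Par (adjusted p = 0.0061). Whether these markers play a part in the members' levels was not tested.

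In the main model, without a block, few members passed. In LM2 against Par, 3 of the 49 tested members passed an adjusted p of 0.05 in edgeR (6.12%, where 8.67% of all tested genes did): RIMS2 and SNAP25 rose (2 of 49, beside 4.16% of all genes) and SYT12 fell (1 of 49, beside 4.51%). In BrM2 against Par, 8 of 49 passed (16.3%, against 13.2% of all genes): RIMS1, RIMS2, ERC2, STXBP6 and SYT11 rose (5 of 49, beside 6.24%), and SYT2, SYT12 and SYT15 fell (3 of 49, beside 7.0%). In BrM2 against LM2, 5 of 49 passed (10.2%, against 8.1%), with RIMS2, ERC2, STXBP6 and SYT11 higher in BrM2 (4 of 49, beside 4.09%) and SNAP25 lower (1 of 49, beside 4.01%). These shares lay near the background, and the median member moved little: −0.04, −0.14 and −0.16 on the log2 scale in the 3 comparisons, beside 0.01, −0.02 and −0.03 over all genes. RIMS1, ERC2, STXBP6 and SYT11 passed the filter only through their BrM2 libraries, SNAP25 only through LM2 and SYT15 only through Par. Counts that include any of these members are therefore descriptions. The comparisons of LM2 and of BrM2 with Par share the same Par libraries. Across the 3 comparisons 9 members passed at least once and 40 in none, whereas 36 passed at least once and 13 in none with the replicate block described next.

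The libraries numbered 1 shifted in parallel in the 3 lines, and blocking on the replicate number in edgeR let many more genes pass. In LM2 against Par 16 of the 49 members then passed (34.5% of all genes), 6 higher (15.5%) and 10 lower (19.0%). In BrM2 against Par 25 passed (42.7%), 10 higher (19.5%) and 15 lower (23.2%), and in BrM2 against LM2 24 passed (37.5%), 13 higher (17.8%) and 11 lower (19.7%). Members named below that passed only with the block are given with both values in at least 1 comparison. Not every comparison in which they passed with it is listed. The libraries of the compared lines did not overlap for 17, 23 and 15 of the 49 members, beside 25.1%, 31.3% and 23.2% of all genes.

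**Figure D1:**
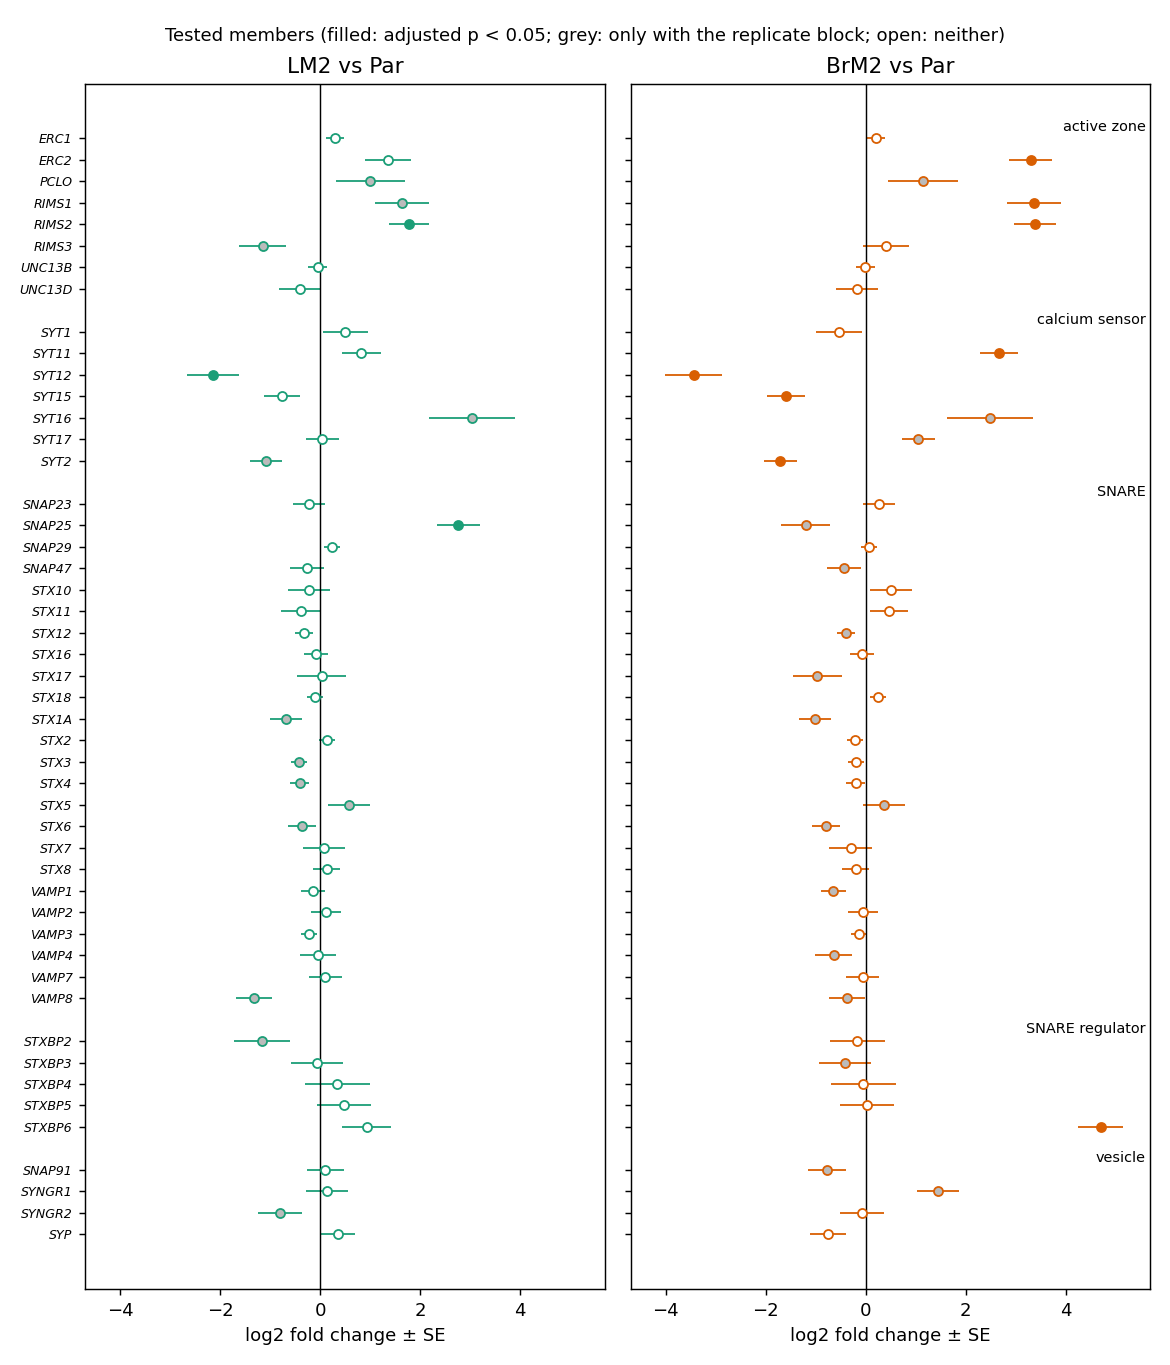
Log2 fold change (edgeR) of tested members in LM2 against Par and in BrM2 against Par, grouped by role, with error bars of 1 standard error (n = 3 libraries per line); filled points passed an adjusted p of 0.05, grey points only with the replicate block, open points neither. RIMS2 and SNAP25 were higher and SYT12 lower in LM2, while the SNARE proteins other than SNAP25 stayed within 1.33 log2 units of 0 in both lines.

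In the active zone group, 3 of 8 tested members rose in BrM2 against Par (RIMS1, RIMS2 and ERC2), beside 6.24% of all genes, and 1 rose in LM2 (RIMS2), beside 4.16%. RIMS1 and ERC2 passed the filter only through BrM2, with up to 139 and 55 counts there against at most 44 and 14 in LM2. The 3 of 8 is therefore a description of the tested members and not of the group. None fell in edgeR in either comparison, with 1 lower at an unadjusted p under 0.05 in LM2, 0 in BrM2, 0 by DESeq2 in both, and 1 in LM2 with the block (RIMS3). RIMS2, a RIM scaffold that binds Rab3 on the vesicle and calcium channels in the membrane, lies on chromosome 8. It stood at 3.89, 3.92 and 4.40 CPM in Par, at 8.09, 17.1 and 16.7 CPM in LM2, and at 22.8, 58.4 and 45.7 CPM in BrM2. The 3 lines formed separate ranges in the order Par, LM2, BrM2. Within each replicate number BrM2 exceeded Par 5.86-, 14.9- and 10.4-fold and exceeded LM2 2.82-, 3.41- and 2.74-fold. In the fit over all libraries RIMS2 rose by 3.38 ± 0.42 (log2, SE) in BrM2 against Par (adjusted p = 0.001), a call that held when any single library was left out. The 1.78 ± 0.40 rise in LM2 (adjusted p = 0.026) missed the threshold without any 1 of the Par libraries, LM2 replicate 2 or 3, or BrM2 replicate 3 (adjusted p up to 0.11), and the 1.60 ± 0.39 difference of BrM2 from LM2 (adjusted p = 0.038) was kept only without BrM2 replicate 1 and lost without any of the other 8 (adjusted p up to 0.13).

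RIMS1, the closest relative of RIMS2 and the founding RIM protein, lies at chr6:71886550-72403145 (GRCh38.p14) and was less abundant than RIMS2 on a per-length scale, at 1.35 ± 0.806 against 12.8 ± 6.42 TPM (SD, n = 3; counts divided by transcript length and scaled to a common sum) in BrM2. Its levels were 0.525, 0.339 and 0.472 CPM in Par, 0.745, 1.71 and 1.69 CPM in LM2 and 1.92, 5.21 and 6.66 CPM in BrM2. The ranges again did not overlap between any of the lines. RIMS1 rose by 3.36 ± 0.54 in BrM2 against Par (adjusted p = 0.0037). Its 1.63 ± 0.54 in LM2 against Par and 1.73 ± 0.48 in BrM2 against LM2 did not pass (adjusted p = 0.11 and 0.065) but did with the replicate block (0.01 and 0.0017).

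ERC2 (ELKS2/CAST, chr3:55508311-56468467) encodes an active zone scaffold that binds RIM. It was barely detected in Par, at 0.210, 0.0968 and 0.236 CPM, and reached 0.347, 0.531 and 0.537 CPM in LM2 and 1.33, 2.43 and 1.77 CPM in BrM2. All BrM2 libraries lay above all LM2 libraries, and these above all Par libraries. ERC2 rose by 3.3 ± 0.43 in BrM2 against Par (adjusted p = 0.0012) and by 1.96 ± 0.38 in BrM2 against LM2 (adjusted p = 0.013). The second call was lost without LM2 replicate 2, BrM2 replicate 2 or BrM2 replicate 3 (adjusted p = 0.057, 0.061 and 0.051).

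The paralogues differed from these 3. ERC1, the broadly expressed ELKS protein, stayed between 71.9 and 104 CPM in all 9 libraries and passed in no comparison, with or without the block. RIMS3, a short RIM isoform gene without the Rab3-binding end, was lower in LM2 (3.87, 1.80 and 1.73 CPM) than in BrM2 (9.51, 5.61 and 6.42 CPM), with Par at 8.88, 4.07 and 3.38 CPM. Its BrM2 and LM2 libraries did not overlap, and the difference of 1.54 ± 0.47 passed only with the block (adjusted p = 0.088, and 0.00019 with it). RIMS3 also fell in LM2 against Par only with the block (log2 fold change −1.15, adjusted p = 0.21; −1.12, 0.0019 with it). PCLO, the giant scaffold piccolo, had log2 fold changes of 1.0 ± 0.69 in LM2 and 1.15 ± 0.70 in BrM2 against Par, with adjusted p = 0.52 and 0.37, and 0.0037 and 0.00099 with the block. RIMS4 had no count.

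Priming factors of the Munc13 family showed no call. UNC13D (Munc13-4), which primes secretory lysosomes outside the nervous system, led the active zone group per transcript length in every line, at 140 ± 29.3, 101 ± 18.1 and 125 ± 42.3 TPM (SD, n = 3) in Par, LM2 and BrM2. UNC13B (Munc13-2) stood at 9.68 ± 0.316, 9.17 ± 1.23 and 9.86 ± 1.17 TPM. The neuronal UNC13A had 7, 2 and 3 counts in Par, 25, 4 and 9 in LM2 and 10, 20 and 18 in BrM2, and UNC13C had none. BSN, encoding bassoon, likewise stayed under the filter with 7 to 24 counts. On the same per-length scale RIMS2 moved from 1.17 ± 0.221 TPM in Par to 4.19 ± 2.15 in LM2 and 12.8 ± 6.42 in BrM2, passing UNC13B on the mean in BrM2 but not beyond the spread of its libraries.

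**Figure D2:**
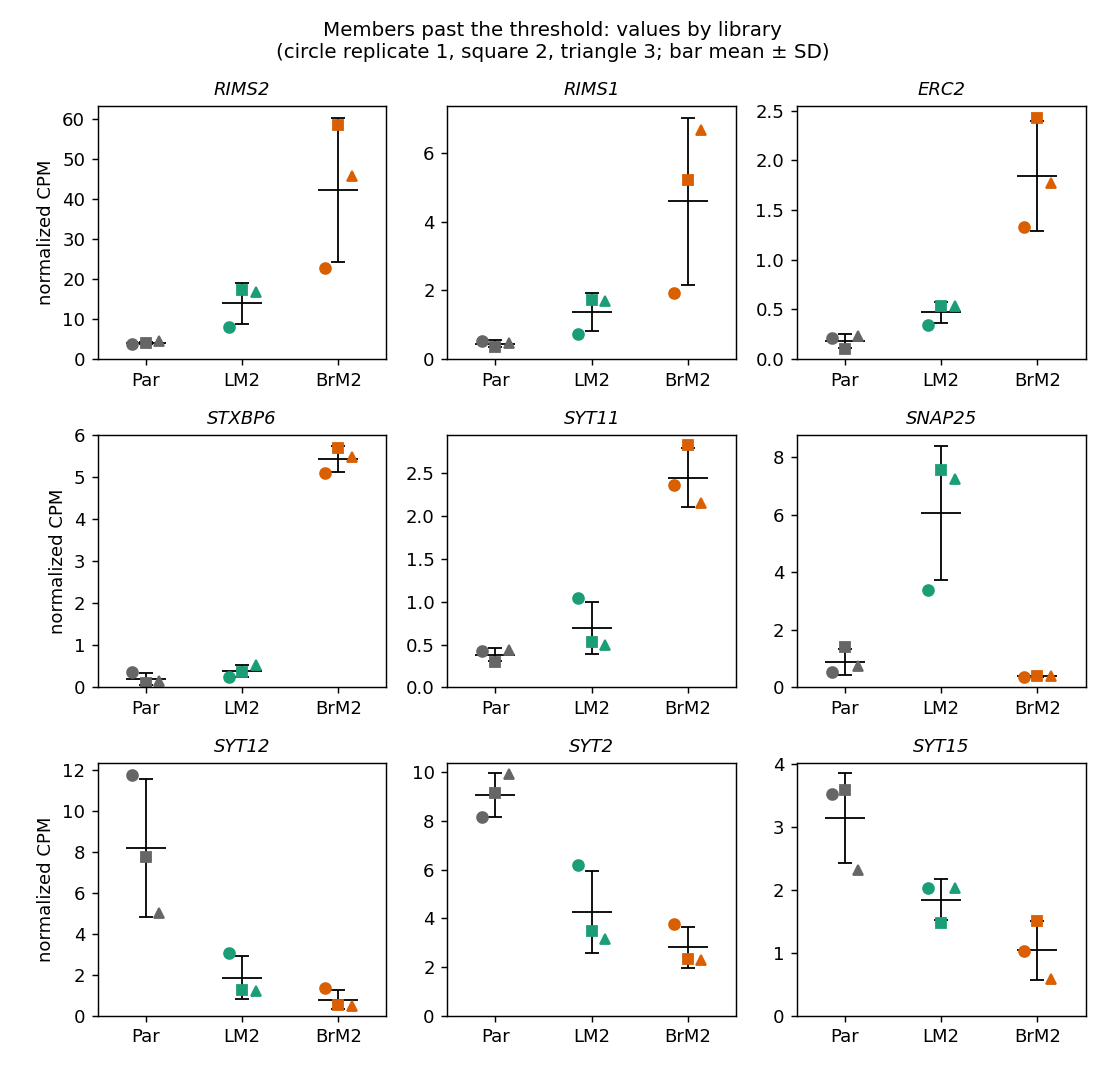
Normalized CPM (linear axes, each panel with its own scale) of the 9 members that passed in at least 1 comparison, each point 1 library (circle replicate 1, square 2, triangle 3) with the mean and SD as bars. RIMS2, RIMS1 and ERC2 are ordered Par, LM2, BrM2 without overlap, SNAP25 is high only among the LM2 libraries (3.38 to 7.55 CPM), STXBP6 and SYT11 separate BrM2 from the other two, and SYT12, SYT2 and SYT15 are highest in Par.

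Promoters are shown for called members with opposite directions in BrM2 against Par, so that the letters before the genes that rose can be read beside those of SYT2, which fell. Windows were taken from RefSeq (GRCh38.p14), as the 250 bases before the transcript start farthest upstream. Capitals mark AP-1 sites (TGANTCA, N being any base) and GC boxes (GGGCGG, or CCGCCC on the other strand); both strands were searched and the motifs share no bases with each other. RIMS2, SNAP25 and SYT12 are named only, and SYT15, whose sequence is shared with a copy, is not shown. The windows of 3 scaffolds and regulators that rose in BrM2 are ERC2 (chr3:56468468-56468717, minus strand), RIMS1 (chr6:71886300-71886549, plus strand, 1 of 3 listed starts) and STXBP6 (chr14:25050148-25050397, minus strand, 1 of 3 listed starts).
ERC2: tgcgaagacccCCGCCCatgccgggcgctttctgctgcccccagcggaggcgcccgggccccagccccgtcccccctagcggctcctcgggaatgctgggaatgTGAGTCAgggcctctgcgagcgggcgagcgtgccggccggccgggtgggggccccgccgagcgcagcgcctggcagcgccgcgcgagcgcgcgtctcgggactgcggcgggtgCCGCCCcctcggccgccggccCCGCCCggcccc
RIMS1: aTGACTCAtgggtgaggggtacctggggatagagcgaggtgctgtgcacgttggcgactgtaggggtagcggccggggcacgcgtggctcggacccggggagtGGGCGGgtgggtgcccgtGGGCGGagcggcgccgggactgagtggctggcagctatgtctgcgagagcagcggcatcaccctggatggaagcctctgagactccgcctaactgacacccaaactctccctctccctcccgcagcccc
STXBP6: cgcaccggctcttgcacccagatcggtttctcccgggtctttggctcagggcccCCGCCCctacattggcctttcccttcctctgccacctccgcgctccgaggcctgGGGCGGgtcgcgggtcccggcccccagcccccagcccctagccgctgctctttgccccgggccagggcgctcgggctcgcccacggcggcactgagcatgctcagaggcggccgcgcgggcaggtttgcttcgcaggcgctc
Of the synaptotagmins, SYT11 (chr1:155859317-155859566, plus strand) rose in BrM2 and SYT2 (chr1:202710455-202710704, minus strand, 1 of 2 listed starts) fell.
SYT11: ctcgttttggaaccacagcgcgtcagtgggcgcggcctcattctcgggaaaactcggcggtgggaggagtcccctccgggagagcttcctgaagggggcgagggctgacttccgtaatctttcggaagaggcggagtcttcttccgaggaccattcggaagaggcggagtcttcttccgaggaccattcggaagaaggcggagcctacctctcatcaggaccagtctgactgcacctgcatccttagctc
SYT2: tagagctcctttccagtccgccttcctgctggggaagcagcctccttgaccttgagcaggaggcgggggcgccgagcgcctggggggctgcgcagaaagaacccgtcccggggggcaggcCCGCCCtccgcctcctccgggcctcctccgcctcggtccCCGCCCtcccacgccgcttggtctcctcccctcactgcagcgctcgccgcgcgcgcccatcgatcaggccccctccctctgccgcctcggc
ERC2 and RIMS1 each held 1 AP-1 site, and the other 3 windows held none. GC boxes numbered 3 in ERC2, 2 each in RIMS1, STXBP6 and SYT2, and 0 in SYT11. The AP-1 letters were present in 6.57% of all 35116 windows and in 3 of the 95 windows of 61 members (ERC2, RIMS1 and SYT16). GC boxes were present in 42.6% of all windows and in 64.2% of the members' windows, whose median of 22 CG dinucleotides compares with 11 over all windows. These matches are descriptions of letters.

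Of the 7 tested synaptotagmins, not all of which bind calcium, 3 fell in BrM2 against Par (beside 7.0% of all genes) and 1 rose (beside 6.24%). In LM2 1 fell (beside 4.51%). The 1 that rose, SYT11, passed the filter only through BrM2, and SYT15, among the 3 that fell, only through Par. These counts are therefore descriptions of the tested synaptotagmins. SYT12, a synaptotagmin that does not bind calcium (chr11:67006771-67050863), stood at 11.8, 7.75 and 5.03 CPM in Par, 3.08, 1.26 and 1.23 CPM in LM2 and 1.33, 0.530 and 0.479 CPM in BrM2. Every Par library lay above every LM2 and BrM2 library, and the LM2 and BrM2 ranges overlapped. It fell by 2.15 ± 0.52 (log2, SE) in LM2 (adjusted p = 0.035) and by 3.44 ± 0.57 in BrM2 (adjusted p = 0.0043). The LM2 call was lost without Par replicate 1 or 2, LM2 replicate 2 or 3, or BrM2 replicate 2 or 3 (adjusted p = 0.054 to 0.15). Within each replicate number BrM2 was 2.32-, 2.39- and 2.56-fold below LM2, and this difference of −1.30 ± 0.56 passed only with the block (adjusted p = 0.23, and 0.0045 with it).

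SYT2, a fast calcium sensor of release (chr1:202590596-202710454), stood at 8.14, 9.15 and 9.95 CPM in Par, 6.20, 3.47 and 3.14 CPM in LM2 and 3.76, 2.34 and 2.30 CPM in BrM2. Par lay apart from both sub-populations. SYT2 fell by 1.71 ± 0.33 in BrM2 (adjusted p = 0.0093; 0.054 and 0.053 without BrM2 replicate 2 or 3), and its −1.09 ± 0.32 in LM2 passed only with the block (adjusted p = 0.075, and 0.0037 with it). Of the SYT2 exon bases, 27.0% overlap exons of PPP1R12B on the opposite strand, and the strand setting of the counts is not given in the sources used here, so some of these counts may belong to PPP1R12B.

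SYT15 (chr10:46579128-46597108) stood at 3.52, 3.58 and 2.32 CPM in Par, 2.04, 1.47 and 2.03 CPM in LM2 and 1.03, 1.5 and 0.575 CPM in BrM2. Its BrM2 and LM2 ranges overlapped, while Par lay above both. It fell by 1.59 ± 0.38 in BrM2 (adjusted p = 0.025), a call lost without Par replicate 1 or 2 or BrM2 replicate 1 or 3 (adjusted p = 0.054 to 0.092). SYT15 is uncertain, since 94.8% of its 50-base stretches are shared with other transcripts, among them its copy SYT15B.

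SYT11, a synaptotagmin that acts in endocytosis and does not sense calcium (chr1:155859567-155885199), stood at 0.420, 0.290 and 0.432 CPM in Par, 1.04, 0.531 and 0.498 CPM in LM2 and 2.36, 2.83 and 2.16 CPM in BrM2. The BrM2 libraries lay above all others. SYT11 rose by 2.66 ± 0.38 in BrM2 against Par (adjusted p = 0.0019) and by 1.84 ± 0.35 against LM2 (adjusted p = 0.013; 0.059 to 0.072 without LM2 replicate 2 or 3 or BrM2 replicate 2).

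The other 3 tested synaptotagmins passed only with the block. SYT16, another member that does not bind calcium, stood at 0.158, 0.823 and 0.629 CPM in Par, 1.09, 5.39 and 6.98 CPM in LM2 and 0.885, 5.30 and 2.92 CPM in BrM2. Replicate 1 was the lowest in each line, yet within replicate numbers LM2 exceeded Par 6.93-, 6.55- and 11.1-fold and BrM2 exceeded Par 5.62-, 6.44- and 4.65-fold. Its log2 fold changes of 3.04 ± 0.86 and 2.49 ± 0.86 had adjusted p = 0.066 and 0.10, and 4.5e-05 and 0.00018 with the block. SYT17 was higher in BrM2 than in Par by 1.05 ± 0.33 (adjusted p = 0.07, and 0.006 with the block). SYT1, the main sensor of fast neurotransmitter release, averaged 1.60 ± 0.649, 2.35 ± 1.42 and 1.12 ± 0.450 TPM in Par, LM2 and BrM2; with the block it fell in BrM2 against LM2 (−1.03 ± 0.46, adjusted p = 0.24, and 0.0052 with it). No synaptotagmin averaged over 5 TPM in any line.

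Synaptotagmins under the filter held a few contrasts of their own. SYT9, a calcium sensor of dense-core vesicles, had 0 counts in each Par library, 2, 5 and 4 in LM2 and 21, 25 and 9 in BrM2. Set against a floor of 3 counts per Par library, SYT9 was at least 7.33-fold higher in BrM2, or at least 5.47-fold without BrM2 replicate 1. SYT8 had 6, 24 and 11 counts in Par and 9, 10 and 14 in LM2, and none in BrM2, which puts it at least 3.84-fold lower in BrM2 than in Par, or at least 2.25-fold without Par replicate 2. SYT13 had 9, 4 and 10 counts in Par and at most 2 in any library of the sub-populations, at least 2.74-fold lower in LM2 and 2.13-fold lower in BrM2. These bounds carry no test, and the floor covers counting error only. The alternative fit without a filter included SYT9, SYT8 and SYT13, and its values for them are not reported here. SYT7 had 2 to 10 counts, and SYT3, SYT4, SYT5, SYT6, SYT10 and SYT14 had at most 4 in any library.

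SNARE proteins, the core of the fusion machine, held a single call: of 24 tested members only SNAP25 passed, higher in LM2 than in Par and lower in BrM2 than in LM2. In BrM2 against Par none passed in edgeR, with 4 at an unadjusted p under 0.05, 2 by DESeq2 and 10 with the block. SNAP25, the neuronal partner of syntaxin-1 (chr20:10218830-10307418), stood at 0.525, 1.40 and 0.747 CPM in Par, 3.38, 7.55 and 7.24 CPM in LM2 and 0.369, 0.397 and 0.384 CPM in BrM2. All LM2 libraries lay above all Par libraries, and all BrM2 libraries lay below both. SNAP25 rose by 2.76 ± 0.43 in LM2 against Par (adjusted p = 0.0047) and was lower by −3.96 ± 0.48 in BrM2 against LM2 (adjusted p = 0.0014), and both calls held when any 1 library was left out. Its difference of −1.20 ± 0.49 in BrM2 against Par did not pass (adjusted p = 0.17) but passed with the block (0.022).

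SNAP25 was the 1 member called lower in BrM2 than in LM2 in the edgeR fit without the block; DESeq2, edgeR without a filter and edgeR with filterByExpr each called 2. Its widely expressed relatives did not follow it. SNAP23 averaged 8.04 ± 2.02, 7.11 ± 3.48 and 9.89 ± 3.91 TPM in Par, LM2 and BrM2, and SNAP29 averaged 18.6 ± 1.85, 22 ± 6.35 and 20.0 ± 4.03 TPM. Neither passed in any comparison, with or without the block. SNAP47 averaged 56.0 ± 7.70, 44.6 ± 4.62 and 41.9 ± 8.72 TPM and passed in BrM2 against Par only with the block (−0.44 ± 0.34, adjusted p = 0.51, and 0.026 with it), although 22.8% of its exon bases overlap JMJD4 on the other strand. With SNAP25 at 0.984 ± 0.562, 6.84 ± 3.60 and 0.421 ± 0.0665 TPM, its LM2 mean came within the spread of SNAP23 while its Par and BrM2 means lay far under all 3 relatives.

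**Figure D3:**
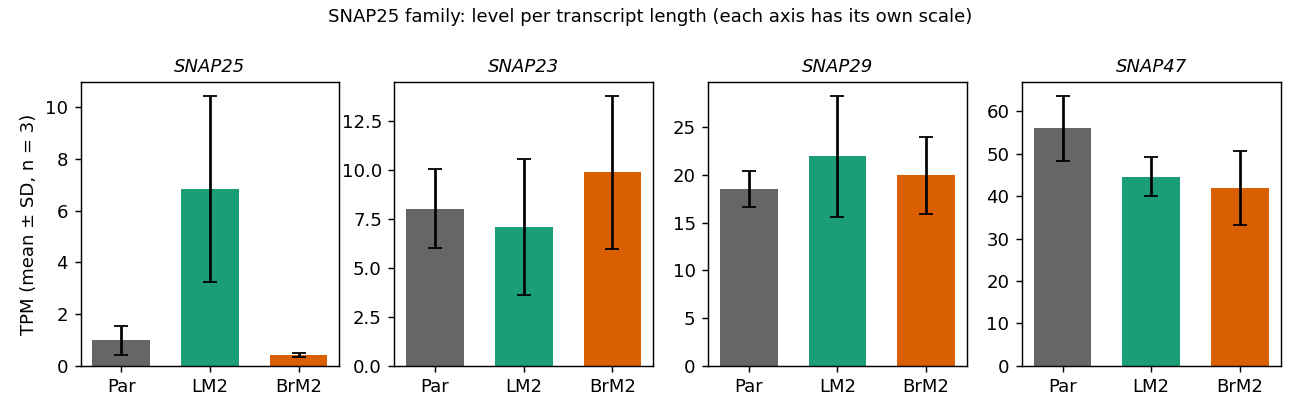
TPM of SNAP25, SNAP23, SNAP29 and SNAP47 in Par, LM2 and BrM2, with bars for the mean of 3 libraries and error bars for the SD, each panel with its own axis. SNAP25 stands at 6.84 TPM in LM2 against 0.984 in Par and 0.421 in BrM2, whereas the error bars of the lines overlap or nearly meet for the other three genes.

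Syntaxins moved by less. STX1A, the plasma membrane partner of SNAP25, stood at 61.1, 60.5 and 52.5 CPM in Par, 47.9, 31.6 and 28.1 CPM in LM2 and 42.7, 20.6 and 22.7 CPM in BrM2. All Par libraries lay above the others, and the values of −0.69 ± 0.32 in LM2 and −1.02 ± 0.32 in BrM2 passed only with the block (adjusted p = 0.27 and 0.074, and 0.0071 and 0.00057 with it). STX6, an endosomal and Golgi syntaxin, differed by −0.79 ± 0.28 in BrM2 against Par (adjusted p = 0.11, and 0.00032 with the block). With the block STX6 was also lower in LM2 than in Par and in BrM2 than in LM2. STX17, which acts in autophagosome fusion, differed by −0.97 ± 0.49 in BrM2 against Par (adjusted p = 0.27, and 0.0015 with the block). STX5, the syntaxin of traffic from the endoplasmic reticulum to the Golgi, was higher in LM2 than in Par only with the block (0.57 ± 0.42, adjusted p = 0.55, and 0.011 with it). It was likewise higher in BrM2 than in Par only with the block. With the block STX3 and STX4, plasma membrane syntaxins of epithelial cells, were lower in LM2 than in Par, by −0.42 ± 0.16 and −0.41 ± 0.19 (adjusted p = 0.18 and 0.27, and 0.015 and 0.025 with it). STX10 and STX18 were higher and STX2 lower in BrM2 than in LM2 only with the block (0.73 ± 0.42, 0.35 ± 0.16 and −0.35 ± 0.16, adjusted p = 0.39, 0.25 and 0.28, and 0.0072, 0.031 and 0.028 with it). STX12 was lower in BrM2 than in Par only with the block (−0.40 ± 0.18, adjusted p = 0.22, and 0.02 with it). STX7, STX8, STX11 and STX16 passed in no comparison under either model, with 24.6% of the 50-base stretches of STX16 shared with the readthrough gene STX16-NPEPL1. STX19 stayed under the filter, at 2 or fewer counts.

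VAMP8, the VAMP of regulated secretion in epithelia and of late endosomes, was the most abundant SNARE per length, at 312 ± 41.8 TPM in Par, 118 ± 24.6 in LM2 and 246 ± 34.4 in BrM2. Its libraries stood at 130, 85.3 and 79.3 CPM in Par, 58.6, 34.6 and 24.2 CPM in LM2 and 99.1, 70.1 and 59.0 CPM in BrM2. LM2 lay below both other lines, by −1.33 ± 0.36 against Par (adjusted p = 0.058, and 2.4e-05 with the block), and BrM2 exceeded LM2 by 0.96 ± 0.36 (adjusted p = 0.17, and 0.00023 with the block). VAMP8 was also lower in BrM2 than in Par only with the block. VAMP3, which serves recycling endosomes, averaged 124 ± 11.2, 106 ± 22.5 and 114 ± 9.58 TPM. VAMP2, the synaptic VAMP, averaged 36.9 ± 5.35, 39.0 ± 2.38 and 37.0 ± 6.52 TPM. Neither of these passed, nor did VAMP7, under either model. VAMP1 and VAMP4 were lower in BrM2 than in Par only with the block (−0.65 ± 0.25 and −0.64 ± 0.37, adjusted p = 0.13 and 0.35, and 0.012 and 0.004 with it), and 10.4% of VAMP1 exon bases overlap TAPBPL on the other strand. VAMP5 had 1 to 12 counts.

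Of the 6 tested SNARE regulators, STXBP6 alone passed in edgeR without the block. STXBP6 (amisyn, chr14:24809454-25050147) carries a SNARE motif that binds syntaxin and SNAP25 and is known to restrain exocytosis. It stood at 0.368, 0.0968 and 0.157 CPM in Par, 0.248, 0.367 and 0.537 CPM in LM2 and 5.09, 5.7 and 5.46 CPM in BrM2. The Par and LM2 ranges overlapped, and the BrM2 libraries lay close together far above both. STXBP6 rose by 4.70 ± 0.45 in BrM2 against Par (adjusted p = 0.00027) and by 3.78 ± 0.41 against LM2 (adjusted p = 0.00073), the largest increases among the tested members in these comparisons, and no single left-out library removed either call. In LM2 against Par its 0.93 ± 0.49 did not pass (adjusted p = 0.36).

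STXBP2 and STXBP3, Munc18 proteins that hold and deliver syntaxin, passed only with the block. STXBP2 (Munc18-2) was lower in LM2 than in Par only with the block (−1.17 ± 0.56, adjusted p = 0.29, and 0.0013 with it) and higher in BrM2 than in LM2 (1.0 ± 0.56, adjusted p = 0.37, and 0.008 with it), with 26.5% of its 50-base stretches shared with another annotated transcript. STXBP3 (Munc18c) was lower in BrM2 only with the block (−0.41 ± 0.52, adjusted p = 0.72, and 0.038 with it). STXBP5 (tomosyn) was lower in BrM2 than in LM2 only with the block (−0.45 ± 0.54, adjusted p = 0.73, and 0.043 with it), and STXBP4 passed in no comparison. Complexins, the clamps of assembled SNAREs, were close to absent from these libraries: CPLX1 had 0 to 5 counts, CPLX2 at most 1, and CPLX3 and CPLX4 none.

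Vesicle proteins were mostly near the limit of detection. Only 4 of 12 passed the filter, and none of these 4 passed in edgeR in any comparison. At an unadjusted p under 0.05 there were 0, 1 and 3 of them in LM2 against Par, BrM2 against Par and BrM2 against LM2, and DESeq2 passed 0, 1 and 2. SYNGR2, the synaptogyrin found outside neurons, had the highest level per length, at 217 ± 39.8, 117 ± 31.0 and 208 ± 65.2 TPM, and was lower in LM2 than in Par only with the block (−0.81 ± 0.44, adjusted p = 0.37, and 0.0027 with it). SYNGR2 was also higher in BrM2 than in LM2 only with the block. SYNGR1, its neuronal relative, stood at 4.25, 3.05 and 3.22 CPM in Par, 5.66, 3.55 and 2.42 CPM in LM2 and 15.0, 5.92 and 8.10 CPM in BrM2. Its BrM2 libraries lay above all others, by 1.45 ± 0.42 against Par (adjusted p = 0.053, and 0.00069 with the block). SYP, the classic synaptic vesicle marker, stood at 2.0, 1.99 and 1.65 CPM in Par, 3.08, 1.96 and 2.19 CPM in LM2 and 1.48, 1.28 and 0.623 CPM in BrM2, and it was lower in BrM2 than in LM2 only with the block (−1.11 ± 0.36, adjusted p = 0.11, and 0.012 with it). SNAP91, a clathrin adaptor of vesicle retrieval, was lower in BrM2 than in Par only with the block (−0.77 ± 0.38, adjusted p = 0.25, and 0.022 with it). The SV2 proteins were at or near 0 (SV2A at most 2 counts, SV2B and SV2C none), SYN1 and SYN3 had at most 4 counts, SYN2 had 5 to 28, SYNGR3 had 5 to 11 and SYNGR4 at most 2.

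Many members differed by replicate number within the lines. Replicate 1 held the lowest value in all 3 lines for 18 of the 49 members (36.7%, beside 37.8% of all genes) and the highest for 16 (32.7%, beside 34.0%). RIMS2, SNAP25, PCLO and SYT16 were among those lowest in replicate 1, and SYT12, STX1A, VAMP8 and SYNGR1 among those highest in it. What set replicate 1 apart, such as passage, day or library preparation, is not in the labels, and its part in these results was tested only through the block and the left-out libraries.

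**Figure D4:**
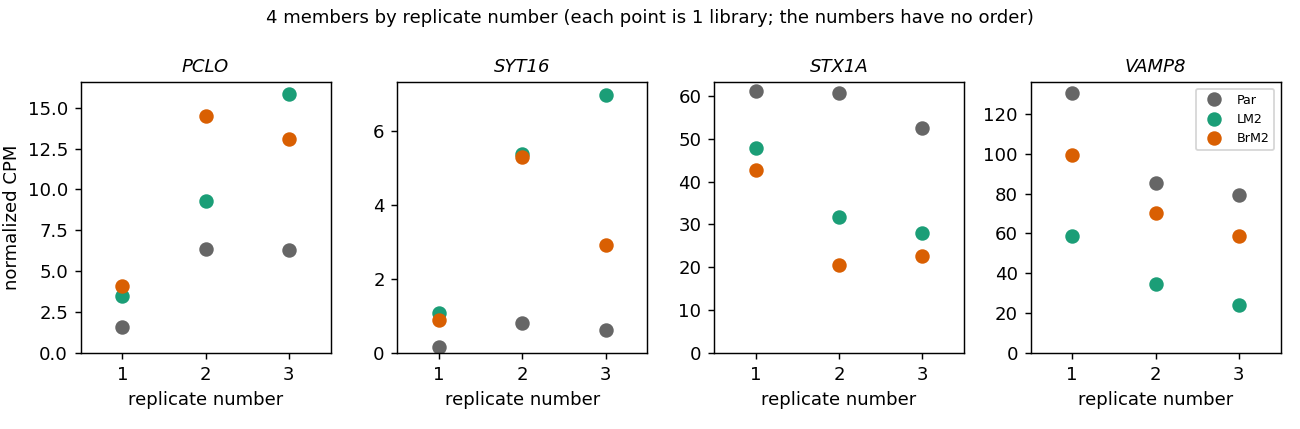
Normalized CPM of PCLO, SYT16, STX1A and VAMP8 by replicate number, each point 1 library, coloured by line; the numbers have no order. PCLO and SYT16 are lowest and STX1A and VAMP8 highest in replicate 1 of every line (PCLO 1.58, 3.47 and 4.13 CPM there), while the lines keep most of their order within each number.

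Genes that work beside the machinery were read from a list of 66 Rab3 and Rab27 effectors, tethers, liprins and endocytic proteins, 47 of them tested. In LM2 against Par 4 rose (AMPH, SCAMP5, SYPL2 and SYTL3) and 4 fell (PPFIA4, RAB3D, SYTL1 and TSPOAP1), 17.0% of those tested beside 8.67% of all genes. In BrM2 against Par 3 rose (AMPH, SYPL2 and SYTL3) and 5 fell (EXOC4, PPFIA4, SYPL1, SYTL1 and TSPOAP1), 17.0% beside 13.2%. In BrM2 against LM2 3 were higher (AMPH, RAB3D and TSPOAP1) and none lower in edgeR, 6.38% beside 8.1%, with 3 lower at an unadjusted p under 0.05, 1 by DESeq2 and 8 with the block. Of these AMPH (amphiphysin), which bends membrane and recruits dynamin when vesicles are retrieved, stood at 0, 0.339 and 0.157 CPM in Par (0, 7 and 4 counts), 24.0, 17.8 and 18.7 CPM in LM2 and 74.4, 66.8 and 73.9 CPM in BrM2. The lines were far apart in the same order as for RIMS2, by 6.86 ± 0.58 and 8.69 ± 0.60 against Par (adjusted p = 0.00023 and 7.7e-05) and by 1.83 ± 0.41 in BrM2 against LM2 (adjusted p = 0.027).

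Of the genes called on this list, 3 belong to families that bind RIM. TSPOAP1 (RIM-binding protein 1), which links RIM to calcium channels, stood at 24.8, 21.3 and 16.0 CPM in Par, 1.74, 1.84 and 1.38 CPM in LM2 and 6.19, 3.97 and 4.27 CPM in BrM2. Par lay far above and LM2 below both other lines; TSPOAP1 fell by 3.64 ± 0.29 in LM2 and by 2.11 ± 0.27 in BrM2 (adjusted p = 0.00018 and 0.0012). PPFIA4 (liprin-α4), of the active zone scaffold family that RIM also binds, fell by 1.53 ± 0.35 in LM2 and by 2.91 ± 0.38 in BrM2 (adjusted p = 0.027 and 0.0012). RAB3D, a vesicle GTPase of the group that RIM recognises, fell by 1.05 ± 0.27 in LM2 (adjusted p = 0.047) and had 0.03 ± 0.27 in BrM2 against Par (adjusted p = 0.97). Others of these families did not pass without the block and had values on both sides of Par. PPFIA3 (liprin-α3) had 0.99 ± 0.47 in BrM2 (adjusted p = 0.23, and 0.031 with the block) and RAB3A 0.59 ± 0.40 (adjusted p = 0.43). In LM2 RAB3A averaged 1.42 CPM against 2.03 in Par, and PPFIA1 averaged 92.7 CPM in BrM2 against 98.5 in Par. Among the called genes of the list, SYTL1 passed the filter only through Par, and AMPH, SYPL2 and SYTL3 only through the sub-populations. The list was also assembled with earlier results of these data known, and its counts are descriptions.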

How the data were processed

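RNA was extracted from Par, LM2 and BrM2 (3 libraries each) and sequenced. The authors aligned the reads to hg38 with STAR and deposited raw gene counts for all 9 libraries; the submitters' notes name CASAVA 1.8.2, STAR 2.7.0 and DESeq2. The strand setting of the counting is not given in the sources used here. A second deposited table holds the authors' own DESeq2 log2 fold changes and adjusted p-values, and was not used.

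The table held 58887 rows. For 3 identifiers repeated under another symbol the counts were kept once, leaving 58884 genes, 34056 with a count. Low genes were removed by a filter written after HTSFilter, which compared 100 thresholds from 1 to 200 on normalized counts. The smoothed mean Jaccard index between replicates peaked at a threshold of 47.15, and the largest mean index before smoothing was 0.943. Genes whose largest normalized count exceeded 47.15 were kept, which left 13018 genes and at least 99.64% of each library's counts. The main test was edgeR's quasi-likelihood test (edgeR 4.0.16, limma 3.58.1, R 4.3.3) with TMM factors, all 9 libraries in one fit, line as the only term and a 2-sided p adjusted by Benjamini-Hochberg over the 13018 genes. The standard error is the absolute log2 fold change divided by the square root of F. CPM were normalized by the TMM factors. TPM used the length of each gene's reference transcript in the GENCODE annotation and were not tested. Where all libraries of a line had at most 3 counts, folds were set against 3 counts per library as a bound.

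Libraries with the same replicate number were checked for pairing. After removal of the line means their correlations were 0.23 to 0.90 in the 9 pairs. The fit with the replicate number as a block is therefore given where it changes a call, though not in every comparison. Its common dispersion was 0.0207, against 0.11 without it. Alternatives were DESeq2 1.42.0, relative log expression factors, filterByExpr, no filter, the compared lines alone, and each library or replicate number left out. The fitting script was tested on simulated counts.

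Every tested member with a call is named with its value in each library, and the others by means, ranges or counts. Some members and markers enter the counts but are not reported here by name. The members and lists were chosen with earlier results of these data known. The share of each member's 50-base stretches found in other genes, and its overlap with genes on the other strand, were computed from the reference transcripts; gene positions and promoter windows come from RefSeq (GRCh38.p14).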

Additional observations from a re-analysis of the deposited data

Results flagged for a closer look

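For 5 members the changes in the sub-populations differed from each other, by the direct test of BrM2 against LM2 in edgeR. ERC2 was higher in BrM2 by 1.96, RIMS2 by 1.6, STXBP6 by 3.78 and SYT11 by 1.84 on the log2 scale. SNAP25 differed the other way, by −3.96. The RIMS2 difference rests on most libraries: it passed only without BrM2 replicate 1 among the 9 fits that each leave out a library (adjusted p up to 0.13).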

How the results depend on the processing

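A set of 71 log2 fold changes was followed through the alternatives. It held every member value called in edgeR with or without the block, and all 3 comparisons of the 9 members called without it. None of the 71 changed sign under the alternatives run. With the replicate block the members called rose to 6 higher and 10 lower in LM2 against Par, 10 and 15 in BrM2 against Par, and 13 and 11 in BrM2 against LM2; partner genes rose to 9 lower in LM2, 8 higher and 13 lower in BrM2 against Par, and 10 and 8 in BrM2 against LM2, and all genes to 4491, 5557 and 4887. The block added calls to 49 of these 71 values, took none away and left the other 22 on the same side. As values called with the block were put in the set for that reason, 49 of 71 is not a share of the members. DESeq2 gave 4 and 3, 8 and 5, and 7 and 2 members, 1 partner gene lower in BrM2 against LM2, and 1886 and 1817 genes in LM2 against Par and BrM2 against LM2. Without a filter there were 5 and 3 members in LM2, 9 higher in BrM2 against Par, and 7 and 2 in BrM2 against LM2, with 3 partner genes lower in BrM2 against Par and 1 lower against LM2. With filterByExpr 2 members were lower in BrM2 against LM2. With only the compared lines, 2 partner genes were lower in LM2 and 601 genes differed between BrM2 and LM2.

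Leaving out 1 library or 1 replicate number gave 0 to 8 members higher and 0 to 10 lower in LM2 against Par, 1 to 10 and 0 to 10 in BrM2 against Par, and 0 to 12 and 0 to 8 in BrM2 against LM2. Partner genes ranged from 1 to 6 and 1 to 10, 1 to 9 and 0 to 13, and 0 to 8 and 0 to 7, and all genes from 70 to 4302, 154 to 5254 and 53 to 4244. Single libraries moved members less than replicate numbers did. With 1 library left out, 1 to 4 members were higher and 0 to 3 lower in LM2 against Par. In BrM2 against Par 5 to 7 were higher and 1 to 4 lower. In BrM2 against LM2 1 to 6 were higher and 1 lower. The fits without replicate 1 gave the largest counts and those without replicate 2 or 3 the smallest, where STXBP6 in BrM2 against Par was the one member call left. The cause was not tested. Members at under 1 CPM in Par (RIMS1, ERC2, STXBP6 and SYT11) rest on few counts there, which limits the precision of their folds.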
